A study of Mus musculus with 4 samples.

Results

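The genes described here encode the signalling and repair of DNA damage. They are 46 mouse genes chosen by symbol: 4 of damage signalling, 18 of homologous recombination and crosslink repair, 7 of end joining and 17 of mismatch and excision repair. A gene entered if a non-control probe of the array carried its symbol, and it was represented by its brightest probe. By that rule 44 of the 46 were found among 27661 gene names with a probe, and all 44 were among the 18307 names tested. No probe carried the symbol of Atr or Fanci. Atr was not analysed here, and Fanci was read from a probe whose gene name is BC025462 and whose RefSeq accession belongs to Fanci; it is given apart and counted nowhere.

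The RNA of 4 samples was hybridised to single-colour mouse arrays. Splenocyte samples 1 and 2 were B220+ cells from C57BL/6N mice, B220 being the surface protein by which B cells are commonly picked out of the spleen. Lymphoma lines 1 and 2 are B-cell lymphoma lines, established independently of each other from mice carrying a dopamine receptor 3 transgene, and each was hybridised once. All 4 samples are labelled C57BL/6N and female, and the promoter of the transgene, the age of the mice and the culture of the lines are not given in the sources used here. The 2 groups differ at once as lymphoma and normal tissue, as lines and freshly selected cells, and in the mice of origin, which cannot be told apart. Nothing says whether the splenocyte samples came from separate animals, so every p-value refers to the spread among these 4 samples alone, and that spread may be technical.

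Cells meet DNA breaks with a signalling cascade that halts the cell cycle and with repair routes that differ in their template. Homologous recombination copies a sister chromatid and so works mainly during and after DNA replication, whereas end joining rejoins broken ends at any phase, and excision and mismatch repair replace damaged or mispaired bases in one strand. B cells also use these routes on their own genes: end joining completes the rearrangement and class switching of immunoglobulin genes, and uracil excision and mismatch repair process the bases deaminated during antibody diversification.

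Values are scaled log2 signals, that is, the log2 processed intensity of a probe relative to the 75th percentile of its array, so that 0 is a spot at that percentile; they compare arrays for 1 probe and not probes with each other. The 75th percentile was 514 in splenocyte sample 2 and between 1078 and 1315 on the other 3 arrays. The number of probes well above background lay between 24974 and 27319 of the 41021 left after flagged spots were dropped, and no spot was saturated. Pearson's r over the tested genes, which are not independent replicates, was 0.992 within the splenocyte group, 0.991 within the line group and 0.834 to 0.846 across groups. Only 2 arrays per group limit the precision of every value. B cell markers were well above background in both groups for 7 of 7 genes, and their summed level was 552 to 693 times the 75th percentile in splenocytes and 293 to 301 times in lines, with 5 of 7 called lower and none higher. The brightest of them, Ms4a1, the gene of the CD20 antigen, was at 7.14 and 7.40 in splenocytes and at 7.35 and 7.18 in lines.

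More of the repair genes were higher in the lymphoma lines than lower. Of the 44 genes, 27 (61.4%) rose, 8 (18.2%) fell and 9 did not pass the test, which was limma's moderated test with Benjamini-Hochberg adjustment over all genes at an adjusted p under 0.05. Over all 18307 genes 63.3% were called, 30.6% as higher and 32.6% as lower. The median log2 difference, lines minus splenocytes, was 0.73 over the 44 genes and -0.048 over all genes. At least a 2-fold rise was called for 16 of them and at least a 2-fold fall for 3, against 21.5% and 24.4% of all genes. The split of all calls moves with the scaling: 48.4% of calls were higher here and 63.2% when each array was centred on its median instead, which shifted every difference up by 0.41. The arrays of the groups did not overlap for 40 of the 44, against 85.0% of all genes. Median centring gave 29 of the 44 higher and 3 lower. Leaving out splenocyte sample 2 left 18 higher and 5 lower, and leaving out splenocyte sample 1 left 21 higher and 3 lower.

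**Figure D1:**
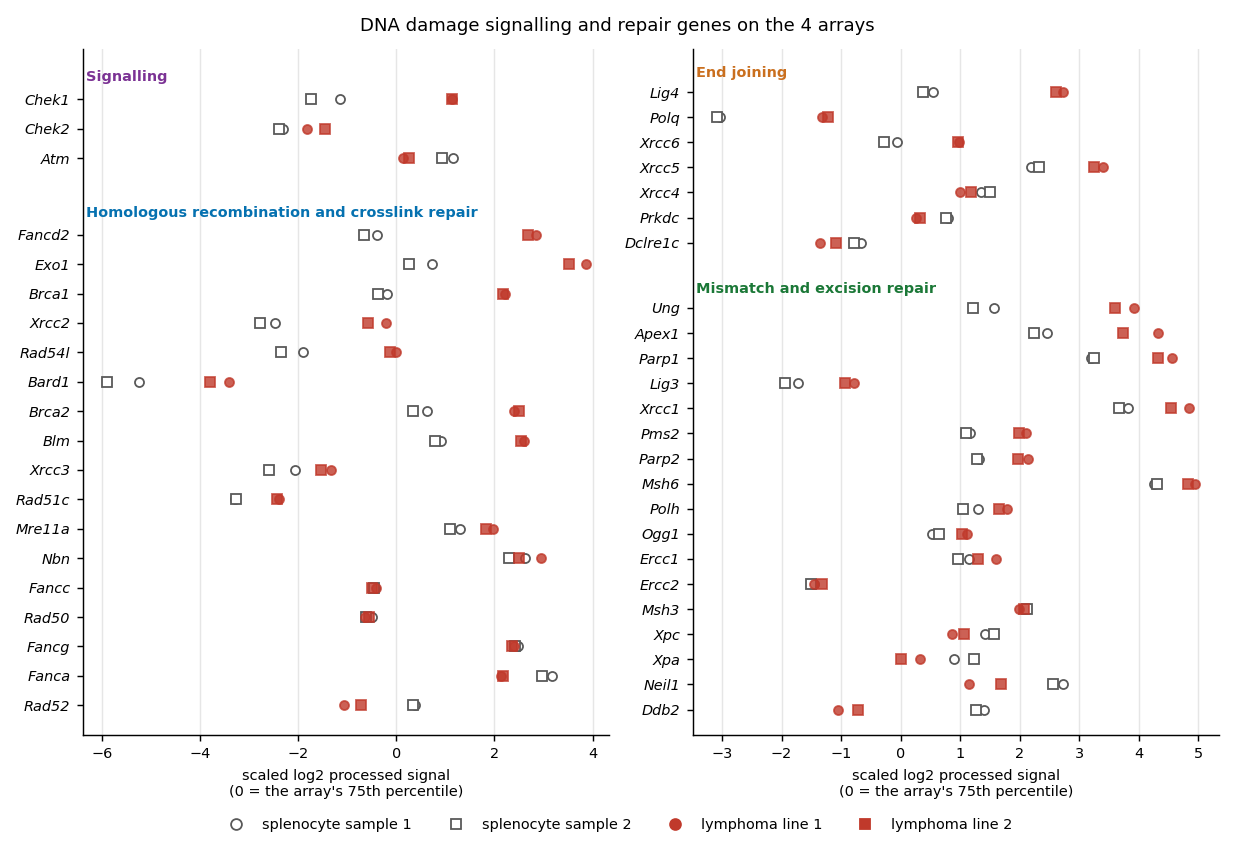
Scaled log2 processed signal of the 44 genes on each of the 4 arrays, in 4 groups of roles, with 0 at the 75th percentile of the array (open symbols: splenocyte samples; red symbols: lymphoma lines; each symbol is 1 array, with no error bar). The red symbols lie to the right of both open ones for Fancd2, Exo1, Chek1, Lig4 and Ung, and to the left for Ddb2, Rad52 and Neil1.

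In each of the 4 groups of roles more genes rose than fell, and the median difference was positive. Over all tested genes 30.6% were called higher and 32.6% lower. In damage signalling 2 of 3 genes rose and 1 fell, with a median difference of 0.71. In homologous recombination and crosslink repair 11 of 17 rose, 2 fell and 4 were not called, with a median of 0.90. In end joining 4 of 7 rose, 1 fell and 2 were not called, with a median of 1.06, and in mismatch and excision repair 10 of 17 rose, 4 fell and 3 were not called, with a median of 0.55. Within the last group the roles parted: all 5 genes of abasic site and single-strand break repair rose, while of 5 genes of nucleotide excision repair none rose, 3 fell and 2 were not called. Without splenocyte sample 2 the mismatch and excision repair counts were 4 higher and 2 lower, without splenocyte sample 1 they were 6 and 2, and without line 2 they were 8 and 2. Signalling had 1 gene higher without either splenocyte sample or line 2 and 0 lower without splenocyte sample 1. Recombination had 1 gene lower without splenocyte sample 1, and end joining 0 lower without either splenocyte sample or line 1. These are counts over few genes, and differences between the groups of roles were not tested. In bulk RNA, fewer cells that express a gene and less RNA of it per cell cannot be told apart.

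Proliferation moved with the groups. All 17 tested proliferation markers rose, by a median of 2.30, and their summed level was 132 to 164 times the 75th percentile in splenocytes and 462 to 601 times in lines. The brightest, Mcm6, a subunit of the replicative helicase, was at 5.73 and 5.46 in splenocytes and at 7.09 and 6.60 in lines. The part of proliferation in the differences of the repair genes was not tested.

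Markers of other cells moved as well. The 4 tested markers of NK cells were all called lower, with summed levels of 1.14 to 1.20 in splenocytes and 0.0481 to 0.0630 in lines. Of 8 myeloid markers 7 were lower and 1 higher, with sums of 10.5 to 15.9 and 35.4 to 35.8; the higher one, Emr1, a macrophage receptor, was 18.7-fold higher in lines and makes up most of the sum there. Of 8 T cell markers 3 were higher, 3 lower and 2 not called, with sums of 2.52 to 3.00 and 12.6 to 14.0. Cd3g, 20.5-fold higher in lines, and Cd5, 5.89-fold higher, make up most of the sum there. Cd3d was 5.34-fold lower and Cd8a 47.6-fold lower. Cd8a was not well above background in either line, so its fold is not a measured size. With its line values raised to the lowest value well above background on each array, the fall was 25.4-fold. Of 3 erythroid markers 2 were lower, with sums of 5.65 to 5.72 and 0.894 to 2.35, and of 4 plasma cell markers 2 were higher and 2 not called, with sums of 45.2 to 64.2 and 9.48 to 28.5. The defining NK cell marker Ncr1 was not well above background on any array, and no B cell or proliferation marker was dim in a whole group. The part of other cells in the results below was not tested.

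Promoter sequences of these genes are shown as a description. Of the 46 genes, 38 had a promoter in the RefSeq table of GRCm38.p6, taken as 250 bases before to 50 bases after the transcript start. Fancd2, Exo1, Xrcc2 and Ddb2 were among the genes without one. The motif TTTCCCGC or TTTGGCGC, letters to which the E2F factors of the cell cycle are known to bind, was found on either strand in 8 of the 38 (21.05%) and in 486 of 27025 genes of the table (1.798%). Among genes called higher 6 of 24 held it, among genes not called 2 of 7, and among genes called lower 0 of 5. Chek1, Brca1, Ung, Lig4, Rad54l and Blm were among the genes that rose and did not hold it. The part of the motif in the differences was not tested. Windows of 6 of these genes follow, 5′ to 3′ on the strand of the gene, with the motif or its reverse complement in capitals. The first 4 belong to genes that rose and the last 2 to genes not called. They lie on the plus strand at chr5:110839791-110839878 (Chek2), chr5:150522413-150522500 (Brca2) and chr15:82016283-82016368 (Xrcc6), and on the minus strand at chr1:71103134-71103221 (Bard1), chr4:43010306-43010393 (Fancg) and chr13:92355158-92355245 (Msh3).
Chek2: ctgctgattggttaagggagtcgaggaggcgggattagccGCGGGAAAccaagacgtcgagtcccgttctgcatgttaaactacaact
Bard1: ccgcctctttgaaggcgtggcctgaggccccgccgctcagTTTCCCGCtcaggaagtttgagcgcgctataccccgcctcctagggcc
Brca2: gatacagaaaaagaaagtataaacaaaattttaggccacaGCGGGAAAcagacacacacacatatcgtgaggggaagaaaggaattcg
Xrcc6: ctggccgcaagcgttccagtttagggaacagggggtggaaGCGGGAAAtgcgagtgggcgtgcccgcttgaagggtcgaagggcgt
Fancg: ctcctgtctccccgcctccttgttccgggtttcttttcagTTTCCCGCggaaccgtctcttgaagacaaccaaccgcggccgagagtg
Msh3: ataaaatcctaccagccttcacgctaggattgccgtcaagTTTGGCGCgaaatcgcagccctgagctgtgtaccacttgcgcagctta
In all 6 the motif lies before the start, its first base 209 bases upstream in Bard1 and 46 in Xrcc6. The other 2 genes with the motif, Rad51c and Msh6, both rose; in Rad51c it spans the start and in Msh6 it lies after it. On both strands, the NRF1 motif GCGCATGC was in 7 of 38 promoters (18.42%, against 3.049% of all genes), the CCAAT box CCAAT in 19 (50%, against 41.06%) and the CHR motif TTTGAA, an element of late cell cycle genes, in 2 (5.263%, against 20.23%). TTTGGCGC and GCGCATGC can share their GCGC letters, and the base composition of the promoters was not matched. A match describes letters and not a bound site, and a missing match says only that these letters are not in that window.

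Damage signalling was read from 3 kinases. Chek1, the kinase that halts the cycle at stalled replication forks, was at -1.15 and -1.74 in splenocyte samples 1 and 2 and at 1.14 in each line. Both lines lay above both splenocyte samples, by at least 2.29. The difference was 2.59 ± 0.24 (SE, 2 arrays per group), a 6.01-fold rise with an adjusted p of 0.00164; its probe lies at chr9:36459511-36459570 in mm8, the build of the array's annotation. Its second probe gave 2.60.

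Chek2, the effector kinase of the break response, was dimmer throughout, at -2.30 and -2.38 in splenocytes and -1.82 and -1.45 in lines 1 and 2. The groups did not overlap, but line 1 lay only 0.48 above splenocyte sample 1. It rose by 0.71 ± 0.19, or 1.63-fold (adjusted p 0.0289); the call ended without either splenocyte sample or without line 2, and the adjusted p ranged from 0.00444 to 0.128 over 16 alternatives. A second probe rose further, by 1.66.

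Atm, the kinase activated by DNA breaks that stands at the head of the cascade, fell. It was at 1.16 and 0.94 in splenocytes and at 0.13 and 0.26 in lines, so that both lines lay below both splenocyte samples. The fall was -0.85 ± 0.16, or 1.81-fold (adjusted p 0.0113), and its second probe fell by 0.54. Without splenocyte sample 1 the adjusted p was 0.0696, and it ranged from 0.00253 to 0.0766 over the alternatives.

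Homologous recombination begins with the MRN complex, which holds and senses broken ends. Of its 3 subunits, Mre11a, the nuclease now named Mre11, rose, and Rad50 and Nbn were not called, with differences of -0.040 (adjusted p 0.825) and 0.26 (adjusted p 0.378). The Rad50 value turned positive under median centring (0.37) and without splenocyte sample 1 or line 1 (0.019 and 0.0038). As a mean over both probes Rad50 was called lower (-1.21, adjusted p 0.00516, in a range over alternatives of 0.00516 to 0.999). The second probe in that mean was at -5.58 and -5.74 in splenocytes and -8.30 and -7.77 in lines. It was not well above background in either line, so the size of the mean is not a measured one. Mre11a was at 1.29 and 1.09 in splenocytes and 1.97 and 1.83 in lines, and rose by 0.71 ± 0.16, or 1.63-fold (adjusted p 0.0185). A further probe on the same accession rose by 0.66, but another, on the transcript AK161013, fell by 0.63. The Mre11a call ended without either splenocyte sample or without line 1, with an adjusted p of 0.00424 to 0.232 over the alternatives.

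Both genes of end resection and unwinding rose. Exo1, an exonuclease that widens breaks and also serves mismatch repair, was at 0.74 and 0.26 in splenocytes and 3.86 and 3.53 in lines. The lines lay at least 2.79 above the splenocyte samples, and the difference was 3.19 ± 0.24, a 9.15-fold rise (adjusted p 0.000972). Blm, the helicase deficient in Bloom syndrome, rose by 1.72 or 3.28-fold.

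The BRCA genes rose together. Brca1, a ubiquitin ligase that directs breaks to recombination, was at -0.20 and -0.37 in splenocytes and 2.22 and 2.18 in lines. The nearest arrays of the 2 groups lay 2.38 apart, and the rise was 2.49 ± 0.15, or 5.60-fold (adjusted p 0.000589). Brca2, which helps to assemble the recombination filament, rose 3.91-fold, and Bard1, the partner of Brca1, rose 3.92-fold. Bard1 was not well above background in splenocyte sample 2, and its rise was no longer called when normexp background correction was used (0.41, adjusted p 0.213; range over alternatives 0.00216 to 0.213). Second probes of Brca1 and Brca2 rose further, by 3.90 and 3.41, but that of Brca1 was not well above background in splenocyte sample 2.

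Among mediators of strand exchange 4 of 5 rose. Xrcc2, one of the recombinase paralogues, was at -2.47 and -2.77 in splenocytes and -0.21 and -0.57 in lines. Its 2.23 ± 0.21 rise was 4.70-fold (adjusted p 0.00163), and 2 further probes rose by 1.62 and 1.45. The probe at 1.62 was not well above background in splenocyte sample 2. The translocase gene Rad54l rose 4.17-fold, and the paralogues Rad51c and Xrcc3 rose 1.82-fold and 1.87-fold. The Xrcc3 call ended without splenocyte sample 2 or without either line (adjusted p 0.0088 to 0.111 over the alternatives), and that of Rad51c under normexp correction alone.

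Rad52, which anneals single strands, was the exception among the mediators. It was at 0.37 and 0.34 in splenocytes and -1.06 and -0.72 in lines, with both lines at least 1.07 below. It fell by 1.25 ± 0.18 on the log2 scale, or 2.38-fold (adjusted p 0.00476), and its second probe fell by 0.83. This call held under all 16 alternatives.

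The Fanconi pathway unhooks crosslinked strands: a core ubiquitin ligase, which includes Fanca, Fancc and Fancg, modifies the Fancd2 and Fanci pair. Fancd2 showed the largest rise of the 44 genes. It was at -0.40 and -0.66 in splenocytes and 2.85 and 2.68 in lines, a rise of 3.29 ± 0.17 or 9.78-fold (adjusted p 0.000437). Both lines were high, the groups lay at least 3.07 apart, and another probe rose by 3.58. A further probe, at 2.32, was well above background in the lines alone. It was at -7.98 and -8.09 in splenocytes, so the size of its rise is not a measured one. Fanci, read by accession under the name BC025462, was at 0.71 and 0.43 in splenocytes and 1.88 and 1.93 in lines, a rise of 2.52-fold (adjusted p 0.00334).

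None of the 3 core complex genes was called higher on its brightest probe. Fanca was at 3.17 and 2.96 in splenocytes and 2.14 and 2.18 in lines, a fall of -0.90 ± 0.15 or 1.87-fold (adjusted p 0.00806). Both lines lay below both splenocyte samples on that probe. A second, dim probe on the same accession, well above background on 2 arrays, ran the other way at 2.35, and the mean over both probes reversed the sign to 0.72 (adjusted p 0.0158, the range over alternatives being 0.00128 to 0.0589). Without splenocyte sample 1 the Fanca call ended (adjusted p 0.0549).

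Fancg was at 2.48 and 2.41 in splenocytes and 2.40 and 2.35 in lines, a difference of -0.073 ± 0.14 that was not called (adjusted p 0.667). The 4 arrays lay within 0.133 of each other on this probe. Its 2 other probes moved apart, with differences of 1.44 and -1.95, both called. Fancc gave -0.0049 ± 0.14 (adjusted p 0.979) on its 1 tested probe.

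**Figure D2:**
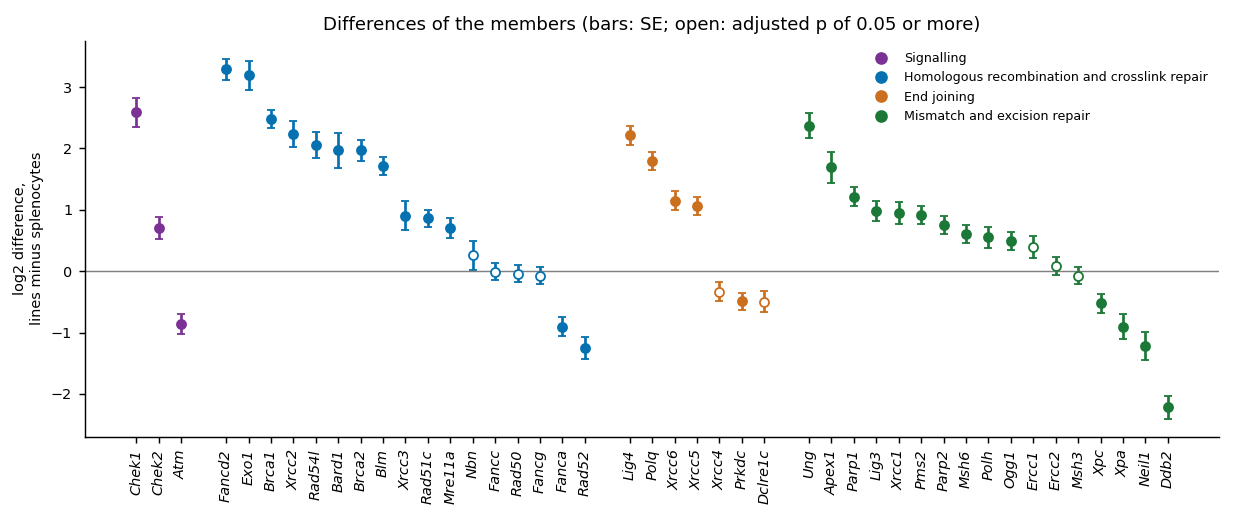
Log2 difference, lines minus splenocytes, of the 44 genes by group of roles (points: estimate on the brightest probe; bars: SE of the fit with 2 arrays per group; open points: adjusted p of 0.05 or more). Fancd2 at 3.29 and Exo1 at 3.19 stand highest and Ddb2 at -2.22 lowest; the sign of Fanca turned when its probes were averaged, and those of 7 open points turned under other settings.

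End joining rejoins ends without a template. Lig4, the ligase that seals them, was at 0.54 and 0.38 in splenocytes and 2.73 and 2.61 in lines. Both lines lay at least 2.07 above both splenocyte samples. The rise was 2.21 ± 0.15, or 4.64-fold (adjusted p 0.000796), and its second probe gave 2.22. Its partner Xrcc4 did not follow: the difference was -0.33 ± 0.16 and was not called (adjusted p 0.128).

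The Ku genes rose and the kinase they recruit fell. Xrcc6, a subunit of the Ku ring that binds broken ends, was at -0.06 and -0.28 in splenocytes and 0.98 and 0.97 in lines, a rise of 1.14 ± 0.16 or 2.21-fold (adjusted p 0.00421). Xrcc5, the other subunit, was at 2.19 and 2.33 in splenocytes and 3.40 and 3.25 in lines, a rise of 1.06 ± 0.15 or 2.09-fold (adjusted p 0.00476). Both lines were high for each subunit. Prkdc, the catalytic subunit of the DNA-dependent kinase, was at 0.80 and 0.76 in splenocytes and 0.26 and 0.32 in lines, a fall of -0.49 ± 0.14 or 1.40-fold (adjusted p 0.0356). The arrays lay at least 0.43 apart, but the Prkdc call ended without any 1 of the 4 arrays and under 8 of 16 alternatives (adjusted p 0.0125 to 0.691).

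Polq encodes polymerase theta, which joins ends through short matching stretches. It was at -3.04 and -3.09 in splenocytes and -1.32 and -1.22 in lines, a rise of 1.80 ± 0.14 or 3.47-fold (adjusted p 0.00107). Both lines were high, at least 1.72 above the splenocyte samples.

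Dclre1c encodes Artemis, the nuclease that opens hairpin ends during immunoglobulin gene rearrangement; it was singled out after its values were seen. Its brightest probe was at -0.66 and -0.79 in splenocytes and -1.36 and -1.08 in lines, a difference of -0.50 ± 0.17 that just missed the call (adjusted p 0.0595). Without line 2 it was called, with an adjusted p of 0.0452 in a range of 0.00214 to 0.657. The 4 probes did not move alike. A probe at chr2:3346359-3346418 fell by 4.25, from -1.75 and -1.73 to -6.00 and -5.99, and a probe on another accession fell by 2.61, while the fourth, at -0.59, was not called.

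**Figure D3:**
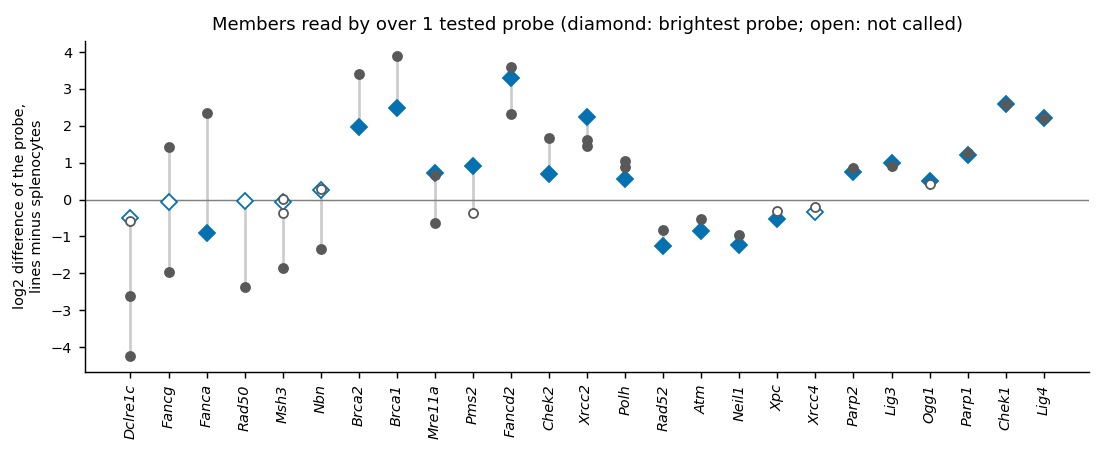
Log2 difference, lines minus splenocytes, of every tested probe of the 25 genes read by over 1 tested probe (blue diamond: brightest probe, used throughout; grey: other probes; open: not called; vertical lines join the probes of 1 gene). Genes are ordered by the spread of their probes, which is widest for Dclre1c, from -4.25 to -0.50, and small for Chek1 and Lig4.

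Of those 25 genes, 14 had all probes called in 1 direction, 7 had called and uncalled probes, 1 had none called and 3, Mre11a, Fanca and Fancg, had probes called in opposite directions. Over all probes tested 64.8% were called. Among the genes with a mixture, uncalled Rad50, Nbn and Msh3 each had a dimmer probe called lower, with differences of -2.38, -1.34 and -1.86. These 3 were singled out after their values were seen. The Rad50 probe was not well above background in either line. That Nbn probe is annotated to the minus strand, at chr4:15884805-15884864, and the other tested Nbn probes to the plus strand, so its fall may not be of Nbn RNA. Probes of a gene can read different transcripts, and which transcript each reads was not tested.

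Of 3 mismatch repair genes 2 rose. Msh6, which finds mispaired bases, rose by 0.61 or 1.52-fold (adjusted p 0.0213), and Pms2, an endonuclease of mismatch repair, by 0.92 or 1.89-fold (adjusted p 0.00635). Msh3, which finds small loops of unpaired bases, was not called at -0.072 (adjusted p 0.674). The Msh6 call ended without either splenocyte sample or line 1 (adjusted p 0.00713 to 0.116), and that of Pms2 when its probes were averaged.

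Of 3 glycosylases, which cut out damaged bases, 2 rose and 1 fell. Ung, which removes uracil, was at 1.57 and 1.21 in splenocytes and 3.92 and 3.61 in lines. Both lines lay at least 2.04 above both splenocyte samples. It rose by 2.37 ± 0.21 or 5.18-fold (adjusted p 0.00142), the largest rise among the mismatch and excision repair genes. Ogg1, which removes oxidised guanine, rose by 0.49 or 1.41-fold (adjusted p 0.0395), a call that ended without any 1 of the 4 arrays (range 0.0107 to 0.195).

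Neil1, a glycosylase for oxidised pyrimidines, fell. It was at 2.72 and 2.56 in splenocytes and 1.16 and 1.69 in lines 1 and 2, a fall of -1.22 ± 0.23 or 2.33-fold (adjusted p 0.0111). Line 2 lay 0.53 above line 1 and still 0.88 below splenocyte sample 2. The second probe of Neil1 fell by 0.96, and without splenocyte sample 1 the adjusted p was 0.0542 (range 0.00232 to 0.0542).

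All 5 genes of the steps after base removal rose. Apex1, which cuts the abasic site, was at 2.46 and 2.23 in splenocytes and 4.33 and 3.74 in lines, a rise of 1.69 ± 0.26 or 3.23-fold (adjusted p 0.00569). Line 1 was the higher: line 2 minus line 1 was -0.60, the widest gap between the lines among the 44 genes. Parp1, which marks strand breaks with ADP-ribose chains, was at 3.21 and 3.24 in splenocytes and 4.56 and 4.32 in lines, a rise of 1.21 ± 0.16 or 2.32-fold (adjusted p 0.00383). The lines lay above the splenocyte samples by at least 1.28 for Apex1 and 1.07 for Parp1.

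Lig3, which seals the nick, was at -1.73 and -1.95 in splenocytes and -0.78 and -0.94 in lines, a rise of 0.98 ± 0.16 or 1.97-fold (adjusted p 0.00754). Xrcc1, the scaffold that holds it, rose 1.93-fold, and Parp2, the second break-marking enzyme, 1.69-fold. All 3 had both lines above both splenocyte samples. Their calls ended without splenocyte sample 2, and that of Parp2 without splenocyte sample 1 too, with adjusted p values up to 0.0511, 0.066 and 0.0755.

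Nucleotide excision repair, which cuts out bulky and ultraviolet damage, had no gene that rose. Ddb2, a damage sensor in chromatin, was at 1.40 and 1.27 in splenocytes and -1.05 and -0.71 in lines. Both lines lay at least 1.98 below both splenocyte samples. It fell by 2.22 ± 0.18 on the log2 scale, or 4.65-fold (adjusted p 0.00121), the largest fall of the 44 genes, and was called under all 16 alternatives. Xpa, which checks the damage, was at 0.90 and 1.23 in splenocytes and 0.32 and 0.01 in lines, a fall of -0.91 ± 0.21 or 1.87-fold (adjusted p 0.019). The groups lay 0.58 apart at their nearest, and the Xpa call ended without splenocyte sample 2 or line 2 (range 0.00533 to 0.136).

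Xpc, the first sensor of the global route, fell by 0.52 on the log2 scale, or 1.44-fold (adjusted p 0.0442), a call that ended without any 1 of the 4 arrays (range 0.0148 to 0.585). Ercc1, part of the nuclease that cuts beside the damage, and Ercc2, a helicase of the transcription factor complex that opens the strand, were not called at 0.39 and 0.085 (adjusted p 0.122 and 0.631). Polh, the polymerase that copies past ultraviolet damage and also writes mutations in antibody genes, rose by 0.55 or 1.47-fold (adjusted p 0.0436), with the call again ended without any 1 array (range 0.00447 to 0.216). Its 3 probes all rose.

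**Figure D4:**
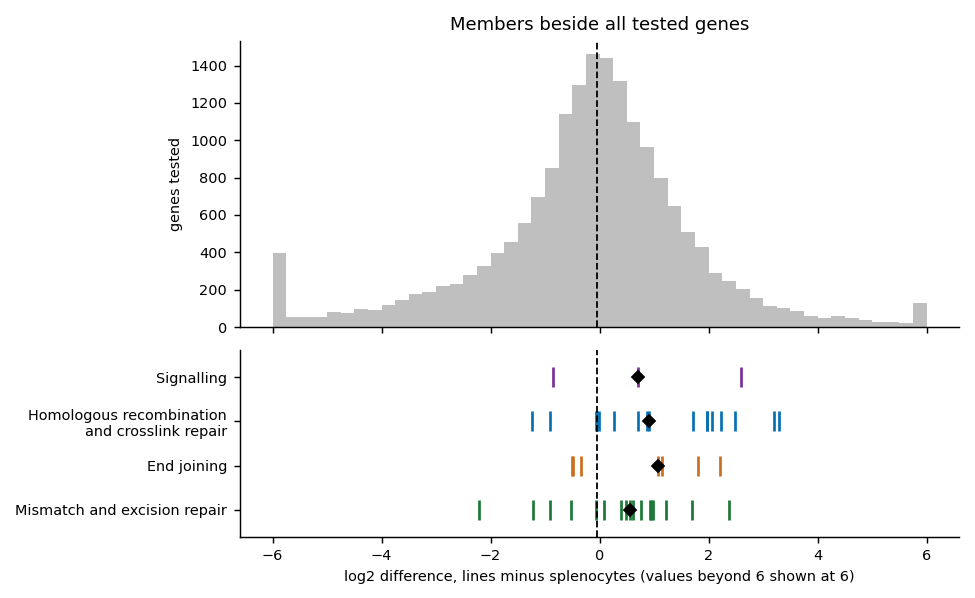
Top: number of the 18307 tested genes by log2 difference, lines minus splenocytes, with values beyond 6 placed at 6. Bottom: the differences of the repair genes by group of roles (ticks: genes; diamonds: median of the group; dashed line: median of all genes, -0.048). The 4 diamonds lie between 0.55 and 1.06, and no tick lies beyond 3.29 or below -2.22.

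Differences within each group stayed under 2-fold in these genes. None of the 44 differed by 2-fold between line 2 and line 1, where 6.58% of all genes did, and none between the splenocyte samples, where 3.73% did; with 1 array on each side there is no test. At these shares few of 44 genes would pass, so the counts of 0 are not read as a trait of these genes. Of the 44, 43 were well above background on all 4 arrays, against 15227 of all 18307. The differences between lines ran from -0.60 for Apex1 to 0.53 for Neil1, and those between splenocyte samples from -0.64 for Bard1 to 0.33 for Xpa. The median SD of a gene was 0.112 over the splenocyte samples and 0.0985 over the lines, against 0.116 and 0.161 over all tested genes. Of the 35 calls, 17 held with the same sign under all 16 alternatives: Chek1, Exo1, Blm, Brca1, Brca2, Rad52, Rad54l, Xrcc2, Fancd2, Xrcc5, Xrcc6, Lig4, Polq, Ung, Apex1, Parp1 and Ddb2.

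Other genes of the same pathways were counted from a list of 118 symbols, of which 100 were tested after old and new symbols were counted once. Of these 44 rose, 19 fell and 37 were not called, with a median difference of 0.19, against 63.3% called over all genes. Among 15 signalling genes 11 rose and 2 fell, with a median of 1.11. Wee1, the kinase that restrains entry into mitosis, rose 7.08-fold, Clspn, which passes the signal to Chek1, 4.62-fold, and H2afx, the histone phosphorylated at breaks, 3.70-fold. Uimc1, which brings the Brca1 complex to breaks, fell 2.73-fold and Rad9, part of the checkpoint clamp, fell 2.58-fold.

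Among 30 other genes of recombination and crosslink repair 12 rose, 6 fell and 12 were not called, with a median of 0.21. Rad51ap1, which stimulates strand exchange, was at -1.22 and -2.01 in splenocytes and 2.04 and 1.85 in lines, an 11.8-fold rise (adjusted p 0.00135). The helicase gene Recql4 rose 6.71-fold. Rmi1, a partner of Blm, fell 3.01-fold, and Smc6, of the complex that holds sister strands during repair, fell 2.69-fold.

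Among 11 other end joining genes 1 rose, 3 fell and 7 were not called, with a median of -0.093. The increase was Xrcc6bp1, 1.71-fold, and the largest fall was Polm, a polymerase that fills gaps at joined ends, 3.64-fold. So 4 of 7 of the main end joining genes rose and 1 of 11 of the others; the difference between these lists was not tested.

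Among 44 other mismatch and excision genes 20 rose, 8 fell and 16 were not called, with a median of 0.22. Ddb1, the partner of Ddb2, rose 6.25-fold from 0.15 and 0.22 to 2.98 and 2.68, while Ddb2 itself fell. Fen1, the flap nuclease of replication and repair, rose 5.39-fold and Gtf2h3, a subunit of the strand-opening complex that also holds Ercc2, 4.91-fold. Alkbh3, which reverses alkylation, fell 2.83-fold and Parp3 fell 2.71-fold.

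**Figure D5:**
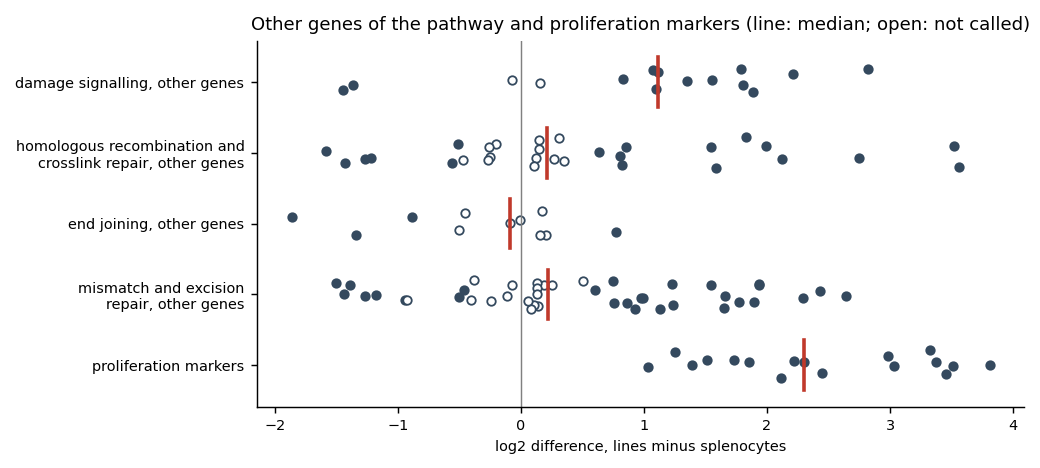
Log2 difference, lines minus splenocytes, of the other tested pathway genes in 4 lists and of 17 proliferation markers (points: genes on their brightest probe, spread vertically only for legibility; red line: median of the list; open: not called). The medians are 1.11, 0.21, -0.093 and 0.22 for signalling, recombination, end joining and excision genes, and 2.30 for proliferation markers, where every point is filled and above 1.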

How the data were processed

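Total RNA was labelled with Cy3 and hybridised to 1 Agilent mouse array per sample. The scanner output came from Agilent Feature Extraction, whose version is 9.5.1.1 according to the files and 9.5 in the submitters' processing notes. The deposited intensity of a spot is its processed signal, corrected for background and spatial trends within the array, and not normalized across arrays; the uncorrected spot mean and the median of its local background are also deposited as intensity values. The deposited matrix holds the processed intensity multiplied by 1 factor per array, a scaling found by comparing the values, since no source used here explains it. Per the file headers, coordinates are of the mm8 build.

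Spots carrying a non-uniformity or population outlier flag on 1 or more arrays were dropped (153 probes had no other spot), spots of a probe were averaged as log2 values, and each array's log2 75th percentile over non-control spots was subtracted. Each gene name took the probe with the highest mean, and was tested if that probe passed the well-above-background flag on 2 or more of the 4 arrays. Lines and splenocytes were compared on all 4 arrays with limma 3.58.1 (lmFit and eBayes, no trend, two-sided) in R 4.3.3, with data.table (version 1.17.8) for reading; p-values were adjusted by Benjamini-Hochberg over all 18307 genes and called under 0.05. The moderated variance used a prior SD of 0.185 with 2.32 degrees of freedom and 2 residual degrees of freedom. The fit was also run on simulated data in which few genes changed. On the arrays 63.3% of genes were called, so that run does not show how the fit performs on these data.

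The genes, the pathway and marker lists (proliferation, B cell, T cell, myeloid, NK cell, erythroid and plasma cell) and the tests were chosen with earlier results of these data known. Values on all arrays are given for the 4 largest increases and 3 largest decreases of each group of roles among called genes bright on all arrays, and for genes whose probes were called in opposite directions; from each pathway list the 3 largest increases and 2 largest decreases are named (some genes are not reported here), and from marker lists the brightest marker. Samples were grouped by their titles. Deviations from the group mean correlated at 0.0135 across genes between arrays of the same replicate number, so the numbers were taken not to pair the samples. Alternatives changed the scaling, background correction, dim-probe filter, probe rule, flags, source of values, prior, pairing and arrays used, and 1, the brightest probe with a RefSeq NM accession, was added after seeing the data. Promoters were read from a RefSeq table and searched for exact motif matches.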

Additional observations from a re-analysis of the deposited data

Results flagged for a closer look

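Fancc, a subunit of the Fanconi core complex, had 1 line on each side of the splenocyte samples. It was at -0.44 and -0.45 in splenocytes, at -0.42 in line 1 and at -0.49 in line 2, so that line 1 lay above and line 2 below both. Line 2 minus line 1 was -0.072, and this difference between the lines was not tested, since each line was hybridised once. All 4 arrays lay within 0.072 of each other. That is less than the median SD of repeat spots of a probe within an array, which was 0.106 to 0.126.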

How the results depend on the processing

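Across 16 alternatives 17 of 35 called genes kept sign and call, 18 lost the call under at least 1, and 6 of 9 uncalled genes were called under at least 1, Fancg among them only with its sign turned. The median of the 44 genes minus that of all genes stayed between 0.605 and 1.12 (0.780 as reported); counts of 44 ran from 18 to 29 higher and from 3 to 9 lower. Relative to the reported fit, the median of all genes moved by 0.41 under median centring, where the median spot is dim, by 0.14 under quantile normalization, by -0.13 under the percentile of bright probes, by -0.26 under normexp correction and by -0.34 without a filter on dim probes. The median of the genes, 0.73, became 1.14 under median centring, 0.60 with bright probes, 0.56 under normexp, 0.82 as a mean over probes and 0.88 on the brightest NM probe (chosen after seeing the data); leaving out 1 array gave 0.65 to 0.81. Median centring left 3 genes lower: 0 in signalling, 1 in recombination, 0 in end joining and 2 in excision repair; no filter left 5, with 2 in excision repair. Signalling genes higher fell from 2 to 1 with bright probes, normexp, no filter and the replicate block. End joining genes lower were 0 under normexp, no filter and the block, and 2 with bright probes, all-array brightness, mean probes and trend. The replicate block otherwise gave 23 higher and 6 lower. Leaving out 1 array gave 18 to 23 higher and 3 to 6 lower; by group, signalling 1 to 2 higher and 0 to 1 lower, recombination 1 to 2 lower, end joining 0 to 1 lower, and excision repair 4 to 8 higher and 2 to 3 lower.

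Signs turned for uncalled genes near 0: Fancc under quantile normalization (0.020), median centring (0.40) and when splenocyte sample 1 or line 2 was left out (-0.041 to 0.031 over the 4 arrays left out); Rad50 under median centring (0.37) and when splenocyte sample 1 or line 1 was left out (-0.098 to 0.019 over the 4); Fancg (0.33), Xrcc4 (0.073) and Msh3 (0.34) under median centring, and Fancg on its NM probe (1.44); Ercc2 with bright probes (-0.043) and normexp (-0.0018); and Nbn as a mean over probes (-0.26). The Nbn mean includes the probe annotated to the other strand. Fanca, called lower, turned to 0.72 as a mean over probes. The cause was not tested. A slide or scan block was not run, as all 4 arrays share 1 slide and 1 scan. Genes tested differ by setting, and dim probes have the least signal over background; Bard1 alone of the 44 was not bright on all arrays.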
